A study of Mus musculus with 3 samples.

Results

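The alpha tubulin family of the mouse comprised 8 genes, Tuba1a, Tuba1b, Tuba1c, Tuba3a, Tuba3b, Tuba4a, Tuba8 and Tubal3, taken by name, and all 8 were found among the 36809 genes measured. Their levels were read in strand-specific RNA-seq libraries of polyadenylated RNA from whole testis, brain and liver, with 1 library per organ. The donors were male C57BL/6 mice aged 11 weeks, and the labels give no treatment and do not say how many animals went into a library. The series title names the complexity of the testis transcriptome as the study's subject. Levels are the deposited FPKM, fragments per kilobase of transcript scaled to sequencing depth, a unit per length in which genes can be compared with each other. There are no replicates, so the variation from animal to animal is unknown and the comparisons below carry sizes but no p-values.

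Alpha tubulin pairs with beta tubulin to form the dimers that polymerise into microtubules, the tracks and scaffolds of neurons, dividing cells and the sperm tail. The family members encode very similar proteins, and several of them are made mainly in particular tissues. The last residue of most alpha tubulins is a tyrosine that is removed from polymerised tubulin and put back on free dimers, and the first residues of the nascent chain are recognised when excess tubulin leads to decay of its own mRNA.

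The coding ends are shown because they hold the residues on which the terminal tyrosine cycle acts. Each line gives, for 7 of the 8 genes, the last 39 coding bases, stop codon included, with the last sense codon in capitals, from the GENCODE M21 transcripts on GRCm38. These stretches lie within the last exon of their gene.
Tuba1b (chr15:98931582-98931620, minus strand): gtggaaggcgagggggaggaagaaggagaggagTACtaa
Tuba1c (chr15:99037971-99038009, plus strand): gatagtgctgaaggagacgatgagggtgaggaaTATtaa
Tuba3a (chr6:125278358-125278396, minus strand): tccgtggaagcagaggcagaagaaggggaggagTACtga
Tuba3b (chr6:145621349-145621387, plus strand): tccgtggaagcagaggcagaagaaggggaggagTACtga
Tuba4a (chr1:75215622-75215660, minus strand): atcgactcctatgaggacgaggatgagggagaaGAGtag
Tuba8 (chr6:121226041-121226079, plus strand): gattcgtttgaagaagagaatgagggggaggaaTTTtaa
Tubal3 (chr13:3933524-3933562, plus strand): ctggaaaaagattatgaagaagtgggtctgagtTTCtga

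A tyrosine codon ends 5 of the 8 reading frames, those of the 3 Tuba1 genes and the 2 Tuba3 genes. Tuba4a ends in a glutamate codon, and Tuba8 and Tubal3 end in phenylalanine codons. The other end of the reading frame is the same in meaning for all 8 genes, since the first 4 codons read methionine, arginine, glutamate and cysteine in each, the signal for tubulin mRNA autoregulation. They are spelled in 5 ways: ATGCGTGAGTGC in the 3 Tuba1 genes, ATGCGTGAGTGT in the 2 Tuba3 genes, ATGCGCGAGTGC in Tuba4a, ATGAGGGAATGC in Tuba8 and ATGAGGGAGTGT in Tubal3. The reading frames hold 446 codons in Tubal3 to 451 in Tuba1a and Tuba1b.

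The family falls into near-copies and distinct genes, and this decides how well each level is known. The coding sequences of Tuba1a and Tuba1b were 98.3% identical, those of Tuba1b and Tuba1c 97.9%, those of Tuba1a and Tuba1c 97.1% and those of Tuba3a and Tuba3b 97.0%. Every other pair was at most 85.3% identical, and Tubal3 was the most distant, with 69.5 to 70.3% to the other members. Reads were 76 bases long, per the labels, and windows of that length were compared between 1 transcript of each gene. Of the windows of Tuba3a, 19.5% occur exactly in Tuba3b and 56.7% within 2 mismatches. Tuba1b shares 35.1% of its windows exactly with Tuba1a and 53.2% with Tuba1c. Tuba4a, Tuba8 and Tubal3 share no window within 2 mismatches with any other member, so their reads can be told apart. How the authors' counting divided reads that match several genes is not given in the sources used here. The split among Tuba1a, Tuba1b and Tuba1c, and between Tuba3a and Tuba3b, is therefore less certain than their sums.

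**Figure D1:**
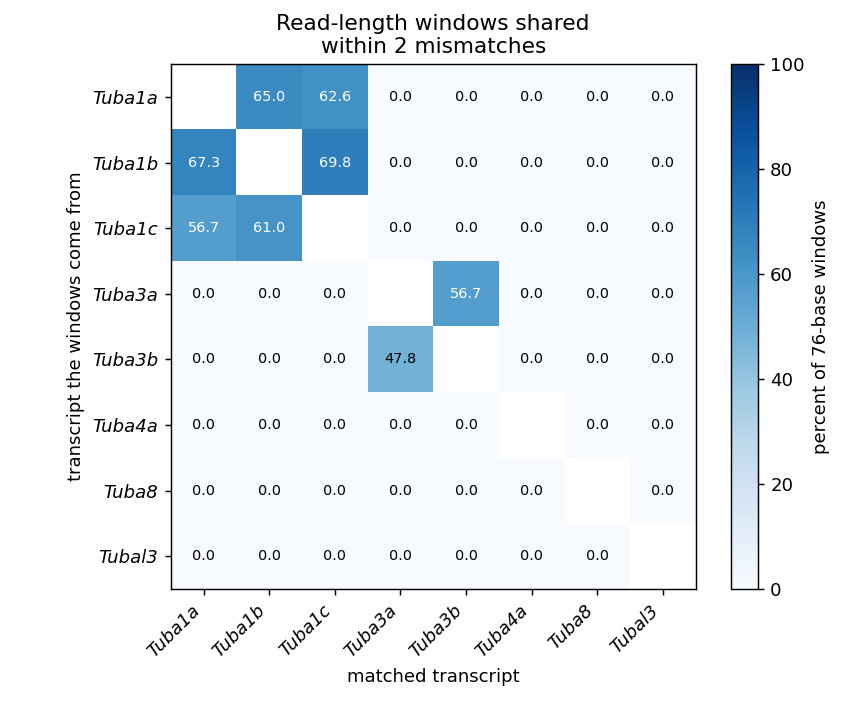
Percent of the 76-base windows of each transcript (rows) that occur within 2 mismatches in the transcript of another member (columns), from GENCODE M21. Sharing is seen among the Tuba1 genes, at 56.7 to 69.8%, and between Tuba3a and Tuba3b, at 56.7% and 47.8%, and is 0 elsewhere.

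The organ labels were checked against defining genes. Male germ cell markers summed to 51831 FPKM in the testis, 46.6 in the brain and 0.649 in liver over 10 genes, brain markers to 26.9, 2322 and 31.9 FPKM over 5 genes, and liver markers to 29.1, 647 and 49806 FPKM over 5 genes. The germ cell sum in brain was spread over several genes, with Tnp1 at 13.5, Meig1 at 11.3 and Prm2 at 9.56 FPKM. For the brain and liver markers, single genes made most of the sums outside the named organ. Slc1a2 held 25.9 FPKM of the brain markers in testis and 31.4 in liver, there with an interval of 0 to 204. Trf held 23.4 FPKM of the liver markers in testis and 641 in brain. Smooth muscle markers (3 genes) summed to 35.7, 12.3 and 6.84 FPKM in testis, brain and liver, blood cell markers (4 genes) to 7.21, 277 and 98.3, endothelium markers (3 genes) to 2.36, 7.62 and 12.5, and markers of ciliated ependyma (4 genes) to 115, 8.55 and 0.0330. The libraries rest on about 40.9 M, 31.8 M and 86.4 M fragments (M, 1e6) in testis, brain and liver, as read from the authors' intervals. Within a library the intervals of the well-expressed members are narrow, and those of Tuba3a and Tuba3b in brain and liver and of Tubal3 in testis are wide. In bulk organs, fewer cells of a type and less RNA per cell cannot be told apart.

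In testis the family's mRNA was mostly that of the paralogs Tuba3a and Tuba3b, which encode an alpha tubulin long known from the male germ line. Tuba3a, ENSMUSG00000067702 on chromosome 6 (mm9, 125228292 to 125236060), stood at 737 FPKM in the testis (authors' interval 732 to 743), 0.313 in the brain (0.201 to 0.425) and 0.0236 in liver (0.00249 to 0.0447). Tuba3b, ENSMUSG00000067338 further along chromosome 6 (mm9, 145564277 to 145569999), stood at 570 FPKM in the testis (566 to 574), 0.302 in the brain (0.201 to 0.402) and 0.0196 in liver (0.00207 to 0.0371). Testis was far above both other organs for each gene, and brain lay above liver with intervals apart. The intervals imply 75216 and 70068 fragments for Tuba3a and Tuba3b in testis, 31.0 and 36.0 in brain, and 5 for each in liver. Among 20163 protein-coding genes Tuba3a ranked 83rd and Tuba3b 124th in the testis library. On the log2(FPKM + 1) scale, which understates the difference of low genes, Tuba3a was higher in testis by 9.14 against brain (9.01 to 9.27 over the authors' intervals) and by 9.49 against liver (9.45 to 9.53). Tuba3b was higher by 8.78 (8.66 to 8.90) and 9.13 (9.09 to 9.17).

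The small Tuba3 values in brain, as a share of the testis level, lay at the low end of those of germ cell markers. Tuba3a in brain was 0.0425% of its testis level and Tuba3b 0.0529%. The 10 male germ cell markers, none of which is listed at 0 in brain, ran from 0.0474% for Odf1, a protein of the sperm tail's outer dense fibres, to 0.188% for Meig1, with Prm2, a protamine that packs sperm DNA, at 0.0739%. In liver Tuba3a was 0.00320% and Tuba3b 0.00343% of the testis level, and the markers ran from 0 for Prm1, Odf1 and Smcp to 0.00613% for Meig1. All markers but Meig1 were at most 0.00194% there, the value of Pgk2. Unlike in brain, both Tuba3 genes thus lay above most markers, on 5 implied fragments each. The part of these germ cell transcripts in the brain and liver values of Tuba3a and Tuba3b was not tested.

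Tuba8, a divergent alpha tubulin, was also highest in testis. It lies on chromosome 6 (ENSMUSG00000030137, mm9, 121160752 to 121176872) and stood at 87.3 FPKM in the testis (85.8 to 88.7), 3.25 in the brain (2.96 to 3.54) and 1.72 in liver (1.58 to 1.87). The 3 intervals were apart, with testis highest and liver lowest. Tuba8 was higher in testis by 4.38 on the log2 scale against brain (4.26 to 4.50) and by 5.02 against liver (4.92 to 5.12). It is also known from striated muscle, and the 4 striated muscle markers summed to 1.63 FPKM in the testis, 3.58 in the brain and 0.0478 in liver, with Ckm and Myl1 listed at 0 in liver. Their part in the values of Tuba8 was not tested.

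Tubal3, the most divergent member in sequence (ENSMUSG00000021216, chromosome 13, mm9, 3923941 to 3934522), was at the low end. It stood at 0.534 FPKM in testis (0.437 to 0.631), which implies 121 fragments, and was listed at 0 in brain and in liver. No fold is given against a value listed at 0. With 1 FPKM added to each value its difference was 0.62 against either organ, under the 4-fold limit. That rests on the added value, since with 0.1 or 0.01 FPKM added the difference was 2.67 or 5.77 and Tubal3 was called higher in testis against both organs.

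**Figure D2:**
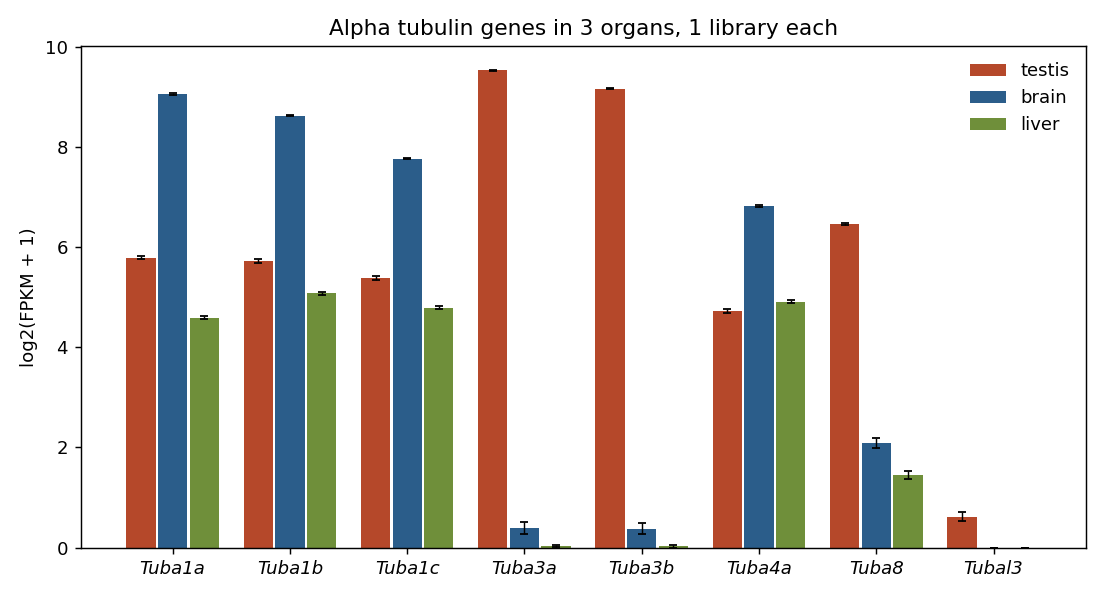
Level of each alpha tubulin gene as log2(FPKM + 1) in testis, brain and liver, with 1 library per organ, where lines on the bars show the authors' interval. Tuba3a and Tuba3b reach 737 and 570 FPKM in testis, and the Tuba1 genes reach 217 to 531 FPKM in brain.

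The Tuba1 genes, neighbours on chromosome 15, and Tuba4a had the opposite pattern and were highest in brain. Tuba1a, the main alpha tubulin of developing neurons (ENSMUSG00000072235, mm9, 98780272 to 98783982), stood at 54.3 FPKM in the testis (52.9 to 55.7), 531 in the brain (527 to 536) and 23.1 in liver (22.5 to 23.8). Tuba1b, a broadly made form (ENSMUSG00000023004, mm9, 98761856 to 98764996), stood at 51.7 FPKM in the testis (50.4 to 53.0), 393 in the brain (389 to 397) and 32.8 in liver (32.1 to 33.5). Tuba1c (ENSMUSG00000043091, mm9, 98860322 to 98868536) stood at 40.6 FPKM in the testis (39.6 to 41.7), 217 in the brain (214 to 219) and 26.7 in liver (26.0 to 27.3). All 3 genes had the order brain, testis, liver, with intervals apart at each step.

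Tuba4a, whose product lacks the encoded terminal tyrosine (ENSMUSG00000026202, chromosome 1, mm9, 75211549 to 75215828), stood at 25.4 FPKM in the testis (24.6 to 26.3), 112 in the brain (110 to 114) and 29.0 in liver (28.4 to 29.7). As deposited, it was the only member with liver above testis, by 1.14 times. Stk16 overlaps it on the opposite strand in GENCODE M21 and stood at 30.9 FPKM in the testis, 24.9 in the brain and 19.4 in liver. The libraries are strand-specific, but whether the counting used the strand is not given in the sources used here, so how many reads pass between Tuba4a and Stk16 is not known. The antisense gene Gm15856, which overlaps Tuba8, was listed at 0 in all 3 libraries.

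Members were called different between organs when they differed at least 4-fold on the log2(FPKM + 1) scale with the authors' intervals apart. In testis against brain 3 of 8 members were higher, Tuba3a, Tuba3b and Tuba8, where 11.0% of all 36809 genes and 14.2% of protein-coding genes were higher by the same rule. Lower were 4 of 8, Tuba1a, Tuba1b, Tuba1c and Tuba4a, against 7.19% of all genes and 10.4% of protein-coding genes. The differences of these 4 were -3.27 for Tuba1a, -2.90 for Tuba1b, -2.39 for Tuba1c and -2.10 for Tuba4a, the last of them close to the limit at 4.28-fold. Scaling each library to its total FPKM, of which protein-coding genes hold 345290 of 14084700 in brain, ended these 4 calls and turned Tuba1c and Tuba4a to 0.36 and 0.62, while the other scalings kept all 4. The median of the 8 members was -0.74, and over all genes it was 0. Over genes at 1 FPKM or more in any library it was 0.06. With members this far apart in both directions the median describes none of them.

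In testis against liver 3 of 8 members were higher, Tuba3a, Tuba3b and Tuba8, and none was lower. Over all genes 15.2% were higher and 3.82% lower, and over protein-coding genes 20.1% and 5.96%. Tuba1a, at 1.20, Tuba1b, at 0.64, and Tuba1c, at 0.59, were above liver by less than the limit, and Tuba4a was at -0.18. With median ratios Tuba1b and Tuba1c were at -0.41 and -0.46, so their small differences have no stable direction. The members' median was 0.92, and that of genes at 1 FPKM or more in any library was 0.88. The liver and brain comparisons share the testis library.

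In brain against liver 3 of 8 members were higher, Tuba1a, Tuba1b and Tuba1c, at 4.46, 3.54 and 2.98, and none was lower. These 3 calls ended when libraries were scaled to total FPKM, where Tuba1c turned to -0.37, and the call of Tuba1c also ended with median ratios, at 1.84. The same rule called 9.15% of all genes higher and 2.79% lower, and 13.6% and 4.55% of protein-coding genes. Tuba4a was just under the limit, at 3.77-fold, passed it with the protein-coding sum, at 2.73, and turned to -1.42 with total FPKM. Tuba8 differed by 0.64, turning to -0.17 with median ratios and -1.59 with total FPKM, and Tuba3a and Tuba3b by 0.36 and 0.35. The members' median was 1.28, against 0.58 for genes at 1 FPKM or more in any library.

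**Figure D3:**
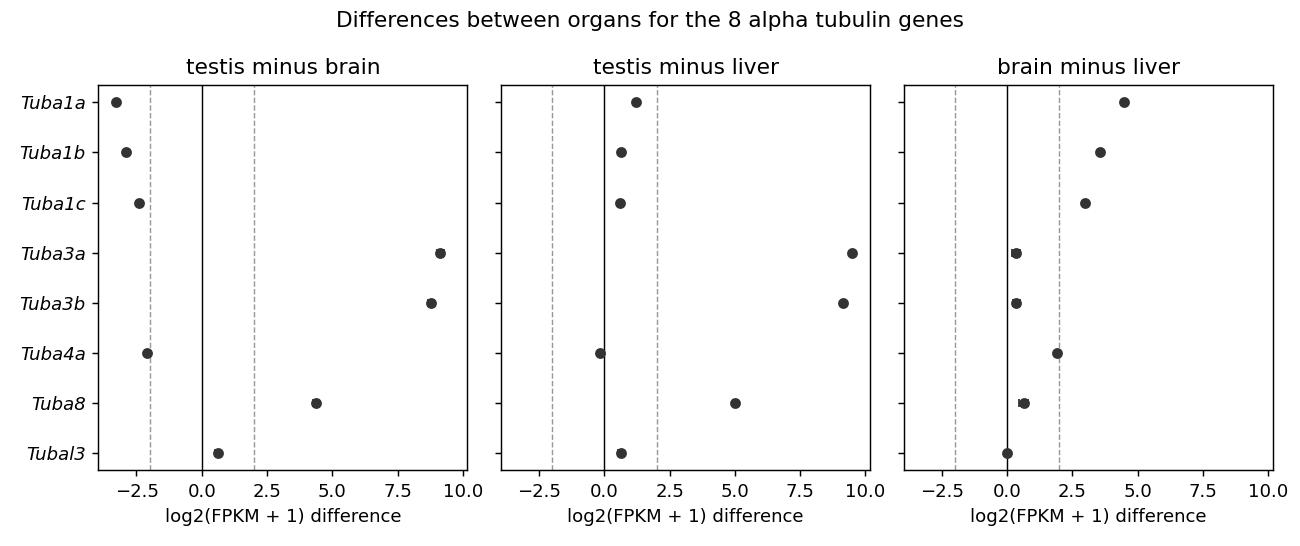
Difference in log2(FPKM + 1) for each member in testis minus brain, testis minus liver and brain minus liver, with lines for the range the authors' intervals allow, mostly narrower than the points, and dashed lines at 4-fold. Tuba3a, Tuba3b and Tuba8 lie beyond 4-fold on the testis side against both organs, and the Tuba1 genes lie beyond it on the brain side against testis and liver.

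The make-up of the pool was different in each organ. Tuba3a and Tuba3b together held 83.4% of the summed alpha tubulin FPKM in the testis, 0.0489% in the brain and 0.0381% in liver. The 3 Tuba1 genes held 9.36%, 90.8% and 72.8% in the same order of organs. Tuba4a held 1.62% in testis, 8.93% in brain and 25.6% in liver, its greatest share in the organ with the smallest pool. Tuba8 held 5.57%, 0.258% and 1.52%. The leading gene was Tuba3a in testis with 47.0%, Tuba1a in brain with 42.3% and Tuba1b in liver with 28.9%. Genes with a terminal tyrosine codon made up 92.8% of the pool in testis, 90.8% in brain and 72.9% in liver. These came mainly from Tuba3a and Tuba3b in testis and from the Tuba1 genes in brain and liver.

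**Figure D4:**
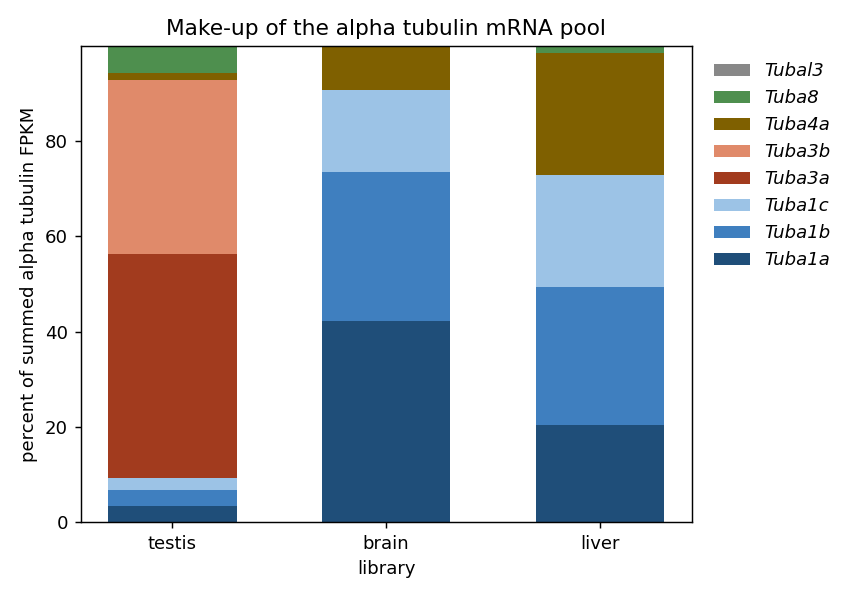
Percent of the summed FPKM of the 8 alpha tubulin genes held by each gene in testis, brain and liver, 1 library each. Tuba3a and Tuba3b fill 83.4% of the testis bar, and the 3 Tuba1 genes fill 90.8% of the brain bar and 72.8% of the liver bar.

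Within each library the order of the levels was clear at most steps. In testis it ran Tuba3a, Tuba3b, Tuba8, Tuba1a, Tuba1b, Tuba1c, Tuba4a, Tubal3, and Tuba1a and Tuba1b were the neighbours whose intervals overlapped. In brain it ran Tuba1a, Tuba1b, Tuba1c, Tuba4a, Tuba8, Tuba3a, Tuba3b, Tubal3, and the intervals of Tuba3a and Tuba3b overlapped. In liver Tuba1b led, followed by Tuba4a, Tuba1c and Tuba1a between 29.0 and 23.1 FPKM, and again Tuba3a and Tuba3b overlapped. Tuba1a exceeded Tuba1b by 1.35 times in brain (1.33 to 1.38), was 1.05 times Tuba1b in testis (0.998 to 1.10) and 0.706 times in liver (0.672 to 0.741). Tuba3a exceeded Tuba3b by 1.29 times in testis (1.27 to 1.31). In view of the shared reads these ratios between near-copies are uncertain beyond the intervals.

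The family sum was 1567 FPKM in the testis, 1257 in the brain and 113 in liver. That is 13.8 times as much in testis as in liver and 11.1 times as much in brain as in liver. The log2 ratio of testis to liver, 3.79, was 2.71 with median ratios, and that of brain to liver, 3.47, was 2.32 with median ratios and 0.067 with total FPKM. Between testis and brain the ratio was 1.25, and its direction also depended on the scaling. Scaling to the protein-coding FPKM sum turned the log2 ratio of 0.32 to -0.40.

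Processed pseudogenes that match the Tuba1 genes were listed at levels from far below to above those genes. The tables hold 6 of them, Gm14150, Gm15599, Gm17383, Gm3756, Gm5620 and Gm6682, that contain read-length windows identical to the Tuba1 genes. Windows found in these 6 make up 45.8% of Tuba1a, 60.0% of Tuba1b and 43.5% of Tuba1c, and 0% of the other members. The lowest, Gm15599, stood at 4.86 FPKM in the testis, 34.6 in the brain and 2.65 in liver, and the highest, Gm14150, at 116, 663 and 64.1 FPKM. The 6 summed to 302 FPKM in the testis, 1952 in the brain and 169 in liver, above the sums of the 3 Tuba1 genes of 147, 1141 and 82.6 FPKM. In implied fragments the order was the other way, with 7531, 56364 and 9028 for the pseudogenes and 17995, 133324 and 21312 for the Tuba1 genes. All 6 were lower in testis than in brain, by -3.06 to -2.37 on the log2 scale, beside -3.27 to -2.39 for the Tuba1 genes. All 6 were also higher in brain than in liver. By the same rule 7.19% of all genes were lower in testis than in brain and 9.15% higher in brain than in liver. These calls use FPKM as deposited, and the pseudogenes' calls under the other scalings are not given here. With the 6 added to the family, the sum was 1869 FPKM in the testis, 3209 in the brain and 282 in liver, and testis came below brain, at 0.582 times. With GENCODE M21 genes not found among those measured counted too, 62.9% of Tuba1a, 67.3% of Tuba1b and 47.9% of Tuba1c windows occur exactly outside the family. Among those genes is Gm49450, annotated as protein-coding, which overlaps Tuba1a and Tuba1b on the same strand. For Tuba3a and Tuba3b the shares are 0.767% and 2.82%, in Gm5366. The part of reads shared with the pseudogenes or these other genes in the Tuba1 values was not tested.

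Tuba3a and Tuba3b are far apart on chromosome 6, but the sequences before their starts are related. Over the 250 bases before the RefSeq start (GRCm38.p6) they were 61.3% identical, and every other pair of members was between 38.8% and 51.5%. Tuba3a holds 3 CCAAT boxes, a common promoter motif, and Tuba3b holds 2. The 2 boxes of Tuba3b and the distal 2 of Tuba3a have the same spacing, 38 bases from one box to the next. The 30 bases around each of these are shown to compare the genes, with CCAAT in capitals.
Tuba3a, distal box (chr6:125286166-125286195, minus strand): ccaaagccacatCCAATcagaaagtgccag
Tuba3b, distal box (chr6:145615862-145615891, plus strand): ccaaatttacatCCAATcagaaagtaccac
Tuba3a, proximal box (chr6:125286128-125286157, minus strand): cttgagccacatCCAATcattagtgggatg
Tuba3b, proximal box (chr6:145615900-145615929, plus strand): attgagccacatCCAATcgcaaaaaggacg

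The distal stretches were identical at 25 of 30 positions and the proximal ones at 22 of 30. The boxes begin 102, 64 and 13 bases before the RefSeq start of Tuba3a, and 89 and 51 bases before that of Tuba3b. The Tuba3a box nearest the start is not shown. The paired boxes lie nearer the start in Tuba3b, and the window ends at the start. A counterpart of the third box could thus fall outside the window, and whether Tuba3b has one was not tested. GENCODE M21 starts Tuba3b 206 bases further upstream, so that both Tuba3b stretches lie inside its transcript. Of all 32851 RefSeq promoters 33.8% hold CCAAT on either strand in the same window and 10.1% hold it at 2 or more places and 2.79% at 3 or more. Among members Tuba1a and Tuba1c hold it at 1 place each. The full CRE, TGACGTCA, was found before none of the 8 genes and in 1.55% of all promoters, and TATAAA likewise before none and in 12.4%. The shorter TGACG, which the full CRE contains, was found before Tuba1c and Tuba4a and in 17.8% of all promoters. GTTGCC, part of the site of RFX factors, was found before Tuba1c and Tuba8 (10.4% of all), the GC box GGGCGG before Tuba1a, Tuba1b, Tuba3a and Tuba4a (32.7%) and the MYB motif AACNG before 5 members but neither Tuba3 gene (74.2%). Each motif was searched on both strands, and a match is a description of the letters only.

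Genes with the most similar pattern were taken as the nearest protein-coding genes by Euclidean distance on log2(FPKM + 1) over the 3 libraries. For Tuba3a they were Iqcf3 (0.144), Pgk2 (0.198), the glycolytic enzyme of late germ cells, and the protamine family gene Prm3 (0.224). For Tuba3b they were Akap4 (0.0512), an anchoring protein of the sperm fibrous sheath, Ttc23l (0.186) and Spata45 (0.208). Akap4 stood at 567 FPKM in the testis, 0.342 in the brain and 0.00228 in liver. For Tuba8 they were Fem1c (0.315), the lamin gene Lmnb2 (0.387) and Cep57l1 (0.413). Among the 3 nearest genes of Tuba4a were Map1lc3b (0.227) and Nme1 (0.289). For Tuba1a the nearest were Lars2 (0.750), Zwint (0.765) and Ypel3 (1.004), for Tuba1b Ypel3 (0.523), Atp6v0c (0.626) and Zwint (0.657), and for Tuba1c Rtn3 (0.553), Atp6v0c (0.577) and Sept7 (0.611). For Tubal3 they were Gpr55, Defa17 and Tg, all at about 0.39, a distance set by low values. With 3 libraries these distances describe levels only.

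The beta tubulins, the partners in the dimer, also split between organs. Against brain, Tubb4b and Tubb6 were higher in testis and Tubb2a, Tubb2b, Tubb3, Tubb4a and Tubb5 lower, of 8, with a median of -3.07. Scaling to total FPKM left 3 of these lower, and scaling to the protein-coding sum left Tubb6 alone higher. Tubb4b, the beta tubulin of cilia and flagella, was at 487 FPKM in the testis, 101 in the brain and 36.4 in liver, and Tubb3, the neuronal form, at 6.31, 73.3 and 0.0111 FPKM. Against liver, 3 beta tubulins were higher in testis and 2 lower under every scaling. As deposited, 11.0% of all genes were higher and 7.19% lower in testis against brain, and 15.2% and 3.82% against liver. The alpha sum was 2.94 times the beta sum in testis, 1.33 times in brain and 0.701 times in liver. These ratios leave out the Tuba1 pseudogenes and depend on that. With them the alpha sums were 1869, 3209 and 282 FPKM in testis, brain and liver, beside beta sums of 533, 943 and 162. Pseudogenes of beta tubulins were not added. Of 4 other tubulins, the centriolar delta tubulin Tubd1 was higher in testis than in brain, at 22.2 against 2.28 FPKM, and the gamma tubulin Tubg2 lower, at 0.998 against 16.4 FPKM, a call that ended with the total FPKM scaling.

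Genes that fold tubulin differed by group. None of the 7 genes of the tubulin cofactors was called between testis and brain, with a median of -0.06, whereas with total FPKM scaling 5 were higher in testis. The cofactor Tbca, which holds beta tubulin, stood at 128, 59.6 and 60.6 FPKM (testis, brain, liver), and Tbcc at 25.1, 5.71 and 1.33 FPKM. Tbcc and Arl2 were higher in testis than in liver, Arl2 not with median ratios. The CCT chaperonin folds newly made tubulin and actin, and 2 of its 9 genes were higher in testis than in brain, 5 higher than in liver, and none lower in either. Of all genes, 11.0% were higher and 7.19% lower in testis than in brain as deposited, and 15.2% and 3.82% against liver. Of protein-coding genes, 14.2% were higher than in brain and 20.1% higher than in liver. Under the other scalings 2 to 9 chaperonin genes were higher than brain, 2 to 5 higher than liver and none lower. The share of all genes under those scalings is not given here. Tcp1 stood at 1400 FPKM in the testis, 142 in the brain and 79.6 in liver. Cct6b, known as the testis form of the zeta subunit, stood at 261, 0.300 and 0.182 FPKM, while its paralog Cct6a was at 68.2, 73.5 and 52.7 FPKM. The chaperonin's median difference was 1.75 against brain and 2.32 against liver.

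Enzymes that act on the ends and the acetylation site of alpha tubulin were compared last, with 7 of 8 listed genes found. Against brain 2 were higher in testis, 1 was lower and the median was 0.63. With the protein-coding sum 2 were lower, Ttl and Vash1, and the median was -0.003, and with total FPKM 5 were higher, Hdac6 and Sirt2 among them, none was lower and the median was 2.82. Against liver 3 were higher and none lower, with a median of 1.94. As deposited, 11.0% of all genes were higher and 7.19% lower in testis against brain, and 15.2% and 3.82% against liver. Ttl, the ligase that puts the terminal tyrosine back, was lower in testis than in brain, at 0.151 FPKM (testis), 7.03 (brain) and 0.335 (liver), a call that ended with total FPKM scaling. The peptidase gene Vash2, which removes that tyrosine, was higher in testis than in brain, at 17.9 and 0.659 FPKM, and was listed at 0 in liver. Svbp, the partner of the vasohibins, was higher in testis too, at 127 FPKM against 7.75 in brain and 2.52 in liver. Vash1 reached 1.10 FPKM in the testis, 4.81 in the brain and 0.301 in liver. Atat1, the enzyme that acetylates alpha tubulin, was at 35.2 FPKM in the testis, 17.5 in the brain and 5.14 in liver, and was higher than in liver by the rule, except with median ratios, and under the limit against brain, except with total FPKM scaling. The deacetylase genes Hdac6 and Sirt2 were at 9.79 and 30.2 FPKM in the testis, 5.96 and 34.2 in brain, and 1.87 and 7.12 in liver. Of the genes of tubulin mRNA decay, Ttc5, which binds the first residues of the nascent chain, was at 4.003 FPKM in the testis, 7.47 in the brain and 1.24 in liver, and Scaper at 16.0, 5.07 and 0.915 FPKM. By the same rule Scaper was higher in testis than in liver.

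**Figure D5:**
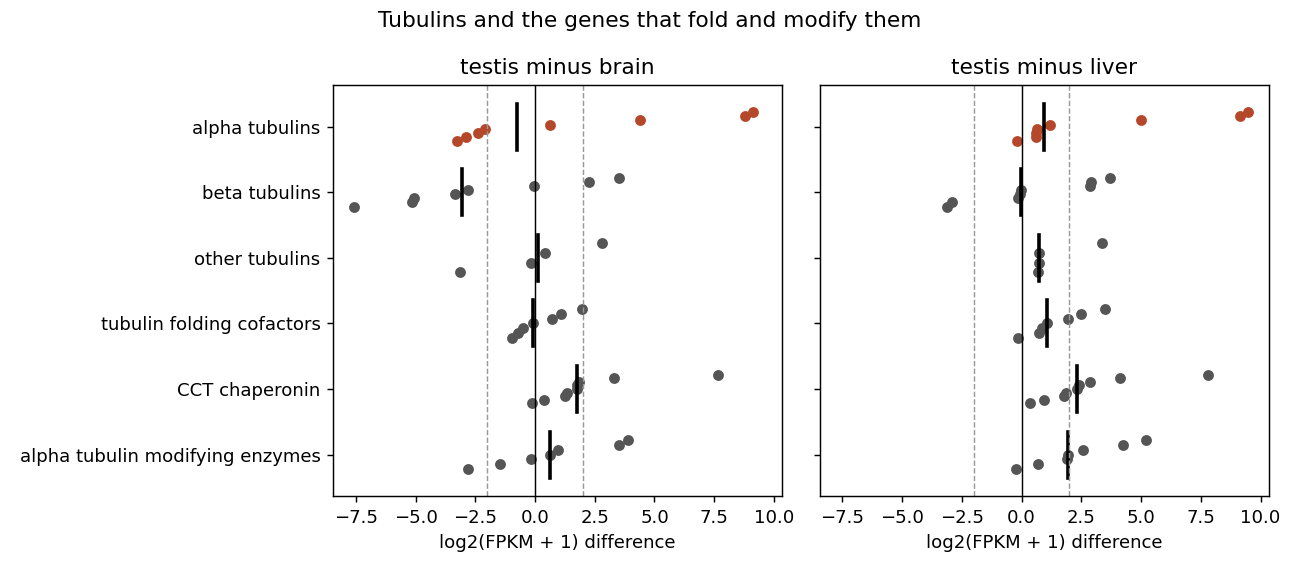
Difference in log2(FPKM + 1) for each gene of 6 groups, testis minus brain on the left and testis minus liver on the right, with a bar at each group's median and dashed lines at 4-fold. The alpha tubulins have points beyond 4-fold on both sides against brain, and the chaperonin median lies at 1.75 and 2.32.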

How the data were processed

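The deposited values are FPKM per gene, each with a lower bound, an upper bound and a status flag, per the file headers. TopHat 1.4.0, Bowtie 0.12.5 and Cufflinks 2.0.0 with the mm9 genome are listed in the submitters' processing notes, and the gene annotation is not given in the sources used here. The level of the bounds is not given either. Implied fragments are the square of 2 times FPKM over the upper half-width of the interval. They are approximate: of low values, 69.6% in testis, 69.6% in brain and 69.5% in liver came out within 0.1 of a whole number. Every member's estimate was marked OK in every library.

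FPKM was used as deposited, identifiers were matched to symbols with GENCODE M21, and differences used log2(FPKM + 1). A gene was called at 4-fold or more with intervals apart. The calling was tried on simulated data with counting noise only. That checks the code and cannot speak to variation between animals, shared reads or scaling. No test was possible with 1 library per organ. Members, lists and rules were chosen with earlier results of these data known. All 8 members are named, with the 3 nearest genes of each, apart from 1 that is not reported here, and with examples from 15 lists, for which 83 of 86 entries matched. The examples were chosen with their values known. The pseudogenes were chosen after their values were seen. Coordinates of genes are on mm9, with 1 added to the start, and sequences are from GENCODE M21 and RefSeq on GRCm38. All 8 members matched the RefSeq promoter table. Python 3.11.15, pandas 2.3.3 and Biopython 1.88 were used.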

Additional observations from a re-analysis of the deposited data

How the results depend on the processing

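Depth limits Tuba3a and Tuba3b most in liver, where each rests on 5 fragments and their ratio could lie between 0.0671 and 21.6. Of the 3 scalings, the FPKM sum moved the median difference of genes at 1 FPKM or more by 1.90 between testis and brain, -0.40 between testis and liver and -2.08 between brain and liver on the log2 scale. The protein-coding sum moved it by -0.55, 0.04 and 0.56, and median ratios by 0.07, -0.70 and -0.75. Under every scaling Tuba3a, Tuba3b and Tuba8 were called higher in testis than in brain and in liver. With the FPKM sum, 0 members were lower in testis than in brain and 0 higher in brain than in liver. Tuba1c and Tuba4a then turned to 0.36 and 0.62 for testis minus brain, and for brain minus liver Tuba1c turned to -0.37, Tuba4a to -1.42 and Tuba8 to -1.59. An 8-fold minimum left 1 member lower in testis than in brain, and a pseudocount of 0.01 gave 5 higher in brain than in liver. The share of all genes called under these scalings and settings is not given here, so the counts show only how the members' calls move. The log2 ratio of the family sums, testis minus brain, was -0.40 with the protein-coding sum, 0.39 with median ratios and 3.10 with the FPKM sum. Testis minus liver gave 3.90, 2.71 and 3.17, and brain minus liver 4.30, 2.32 and 0.067. With the pseudogenes added, chosen after seeing the data, the log2 ratios were -0.78, 2.73 and 3.51. Tuba3a then held 39.4% in testis, Tuba1a 16.6% in brain and Tuba1b 11.6% in liver. In FPKM Gm14150 was above Tuba1a in brain and above Tuba1b in liver. In implied fragments Gm14150 was below them, at 3149 against 58230 for Tuba1a in brain and 686 against 8200 for Tuba1b in liver. Without the pseudogenes, Tuba3a and Tuba3b taken as 1 gene held 83.4% in testis. The causes were not tested. No paired analysis was possible because each organ has 1 library.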
